A study of Gallus gallus with 3 samples.

Results

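EEF1A1, ACTB and GAPDH are described here as reference genes of the chicken (Gallus gallus) blastoderm, the disc of cells on the yolk at about the time of laying. They are 3 genes of 16658 with a value in every library, chosen by their identifiers ENSGALG00000015917, ENSGALG00000009621 and ENSGALG00000014442. The names were given with the identifiers. The files hold identifiers only, and the pairing could not be checked against a reference annotation. The genes were picked with their high levels already known, so levels and ranks are descriptions and carry no test.

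RNA was measured in 3 libraries of whole embryos at Eyal-Giladi stage X, pools a, b and c of the labels. Each library came from 20 to 30 pooled embryos, all of 1 group with no treatment in the labels. The labels give neither strain nor sex, and they do not say whether pools were collected separately, so the spread between pools may be technical. The pools had 140187132, 135502157 and 137811639 reads on genes. With bulk RNA of whole embryos, a level averages over all cell types, and fewer cells and less RNA per cell cannot be told apart.

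Reference genes, or housekeeping genes, are transcripts that serve basic functions of nearly every cell, and they are used as a yardstick when other transcripts are measured by quantitative PCR. EEF1A1 encodes the elongation factor that brings aminoacyl-tRNA to the ribosome. ACTB encodes beta actin, a cytoplasmic actin that builds the filaments of the cell cortex and of motile protrusions. GAPDH encodes glyceraldehyde-3-phosphate dehydrogenase, an enzyme of glycolysis. A good yardstick is well expressed and steady from sample to sample, and a set of them should not share a common cause of variation.

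EEF1A1 was the most abundant gene measured, and all 3 genes stood at the top of the range. Levels are given in cRPKM, the authors' corrected RPKM, which scales reads to a number of positions per gene and the size of the library. These positions need not be the full length of the gene. Pool a held 6422 cRPKM of EEF1A1, pool b 6262 and pool c 6321, a mean of 6335 ± 80.5 (SD, n = 3). Pool a held 3579.9 cRPKM of ACTB, pool b 3530.25 and pool c 3714, a mean of 3608 ± 95.1 (SD, n = 3). Pool a held 2716 cRPKM of GAPDH, pool b 2729 and pool c 2864, a mean of 2769.7 ± 81.9 (SD, n = 3). The order EEF1A1, ACTB, GAPDH was the same in every pool, and the ranges of the 3 genes did not overlap.

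**Figure D1:**
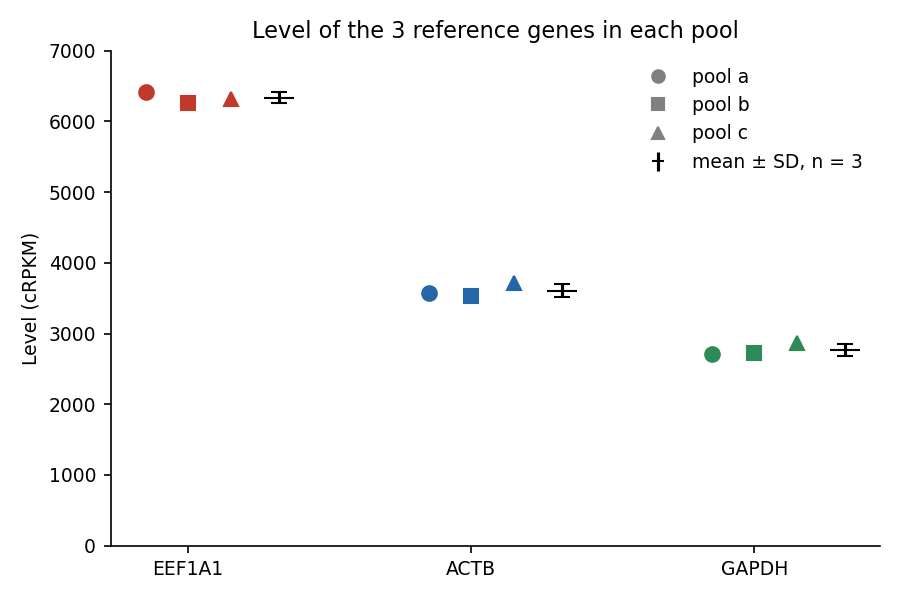
Level in cRPKM (linear axis from 0) of EEF1A1, ACTB and GAPDH, with 1 symbol for each pool and a bar for the mean ± SD of the 3 pools. EEF1A1 lies between 6262 and 6422 cRPKM, ACTB between 3530.25 and 3714 and GAPDH between 2716 and 2864, so the genes are separated by far more than their pools are.

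Read counts gave nearly the same picture. The reads on EEF1A1 numbered 1471855 for pool a, 1387396 for pool b and 1424356 for pool c. Those on ACTB were 768347, 732364 and 783641, and those on GAPDH 440212, 427414 and 456262, with the pools in the same order. Every one of these genes had its fewest reads in pool b, the library with the fewest reads in all. Shares of the library are given with exact binomial intervals at 95%. EEF1A1 was 1.050% of pool a (1.048 to 1.052), 1.024% of pool b (1.022 to 1.026) and 1.034% of pool c (1.032 to 1.035). ACTB was 0.548% of pool a (0.547 to 0.549), 0.5405% of pool b (0.5392 to 0.5417) and 0.569% of pool c (0.567 to 0.5699). GAPDH was 0.314% of pool a (0.313 to 0.315), 0.315% of pool b (0.314 to 0.316) and 0.331% of pool c (0.3301 to 0.332). Intervals cover counting error only. Together the 3 genes took 1.91% ± 0.027 of the counted reads and 2.04% ± 0.032 of the summed cRPKM (SD, n = 3). The authors divided by 1635 positions for EEF1A1, 1531 for ACTB and 1156 for GAPDH, numbers worked out from the reads and the cRPKM. Per position that is 873 reads for EEF1A1, 497 for ACTB and 382 for GAPDH, averaged over pools. How reads shared with near-identical genes were counted is not given in the sources used here. This bears on ACTB most plainly, since the actins of vertebrates are very alike in their coding sequence, and also on EEF1A1, which has a close relative in EEF1A2.

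By mean cRPKM, EEF1A1 ranked 1, ACTB ranked 5 and GAPDH ranked 12 of 16658 genes. By mean reads the ranks were 1, 5 and 11. EEF1A1 was first in every pool on both scales. Its mean cRPKM was 1.11 times that of the next gene, and its mean reads were 1.23 times those of the gene next in reads. No other gene had a cRPKM range over the pools that overlapped that of EEF1A1.

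The rank of ACTB by cRPKM was 7 for pool a and 5 in pools b and c, and by reads it was 5 in every pool. The gene above ACTB had a mean of 4791 cRPKM and the gene below it 3429.6. The ranges of 2 genes overlapped that of ACTB. GAPDH was less distinct from its neighbours. It ranked 15 by cRPKM for pool a, 11 for pool b and 9 for pool c, while by reads it ranked 12, 10 and 11. Its neighbours in mean cRPKM, at 2809.9 and 2743, lay within its SD of 81.9, and the ranges of 9 genes overlapped its own.

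Some of the genes that lay above GAPDH have identifiers close to each other. A run of neighbouring identifiers, picked out after the values were seen, holds 13 genes over 500 cRPKM. In pool a, 6 genes of this run were above GAPDH, in pool b 5 and in pool c 2. GAPDH ranked 15, 11 and 9 by cRPKM in these pools, so genes outside the run also lay above it. The rank and the count of run genes both fell from pool a to pool c, but not by the same steps. The level of GAPDH itself rose over these pools, from 2716 cRPKM in pool a to 2729 in pool b and 2864 in pool c. Both genes whose range overlapped that of ACTB belong to the run, and 3 of the 6 genes above ACTB in pool a do. Of the genes whose range overlapped that of GAPDH, some belong to the run and others do not. The part of the run in the ranks was not tested beyond these counts.

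The genes closest in level were found by the root mean square difference of log2 cRPKM over the 3 pools, a likeness of level and nothing more. For EEF1A1 this was ENSGALG00000004509, at 5799, 5581 and 5740.5 cRPKM in pools a, b and c, a difference of 0.15 on the log2 scale. It reached that level over 173 positions, against 1635 for EEF1A1, and so with fewer reads, 140637 for pool a, 130822 for pool b and 136861 for pool c. For ACTB it was ENSGALG00000028600, at 3410.02, 3111 and 3419 cRPKM, a difference of 0.13. For GAPDH it was ENSGALG00000026383, at 2670.4, 2629 and 2833 cRPKM, a difference of 0.035. That gene was highest in pool c and lower in pools a and b, as GAPDH was, and its range overlapped that of GAPDH.

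All 3 genes lay far above a typical expressed gene of the stage X embryo. The 10459 genes with at least 1 cRPKM in each pool had a median of 15.5 cRPKM. EEF1A1 stood 409-fold over this median, ACTB 233-fold and GAPDH 179-fold, which is 8.68, 7.86 and 7.48 on the log2 scale. Only 7 of the 10459 genes were within 2-fold of the EEF1A1 level, 36 were within 2-fold of ACTB and 73 within 2-fold of GAPDH. Within 10-fold there were 147, 247 and 324 genes for EEF1A1, ACTB and GAPDH. More than 100-fold below EEF1A1 lay 8659 genes (82.8%), more than 100-fold below ACTB 7449 (71.2%) and more than 100-fold below GAPDH 6806 (65.1%). Most transcripts that could be set against these genes were therefore lower by over 100-fold on the cRPKM scale.

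**Figure D2:**
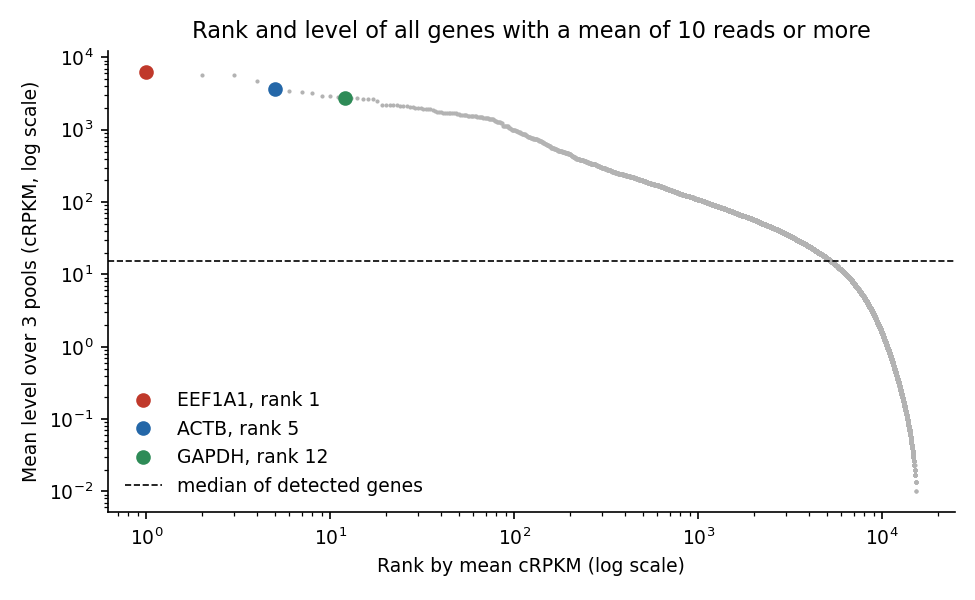
Mean cRPKM over 3 pools (log axis) against rank (log axis) for the genes with a mean of 10 reads or more, with EEF1A1, ACTB and GAPDH in colour. They sit at ranks 1, 5 and 12, well above the dashed line at 15.5 cRPKM, the median of the genes with at least 1 cRPKM in each pool.

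With all 3 pools in, each of the 3 genes varied by about 2%, far more than counting error and less than most genes of similar read count. The coefficient of variation (CV, the SD divided by the mean) was taken on reads scaled by TMM, a factor per library that assumes most genes do not differ. It was 1.94% for EEF1A1, 2.04% for ACTB and 2.14% for GAPDH (n = 3 pools each). Counting error alone gives 0.0837%, 0.115% and 0.151% at these read counts, so the observed CVs were 23.2, 17.8 and 14.2 times as large. This counting error takes each read as an independent molecule, which was not tested. The 100 genes of similar read count described below had a median of 18.2 times their counting error, so such an excess was typical there. The CVs of the 3 genes were nearly alike, so the order of their multiples follows the read counts. With 3 pools each CV is imprecise, and normal-theory 95% intervals for it ran from 1.01 to 12.2% for EEF1A1, 1.06 to 12.8% for ACTB and 1.11 to 13.4% for GAPDH. The 3 CVs are not told apart by these data, and their order turned with the scaling. On total reads, the scale of the cRPKM, they were 1.27%, 2.64% and 2.96%, and on DESeq2 size factors 2.09%, 2.03% and 2.06%, for EEF1A1, ACTB and GAPDH. Single pools weighed heavily: the CV of EEF1A1 was 0.031% without pool a, that of ACTB 1.33% without pool b and that of GAPDH 0.587% without pool c. The 0.031% of EEF1A1 lay below its counting error of 0.0837%, so on TMM-scaled reads its excess over counting error rested on pool a. On total reads, pools b and c still differed by more than counting error for EEF1A1. Its shares there were 1.024% (1.022 to 1.026) and 1.034% (1.032 to 1.035).

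The highest pool had 1.034 times the reads of the lowest for EEF1A1, 1.042 times for ACTB and 1.039 times for GAPDH on TMM-scaled reads. EEF1A1 was highest in pool a, with 1459679 scaled reads, against 1411970.2 for pool b and 1411241 for pool c. ACTB was highest in pool c with 776426 scaled reads, and had 761991 for pool a and 745336 for pool b. GAPDH was also highest in pool c, with 452061 scaled reads, against 436570.2 for pool a and 434985 for pool b. The highest pool of each gene was the same under TMM, TMM with no filter on low counts, total reads and DESeq2 size factors. The lowest pool was not: on total reads it was pool b for EEF1A1 and pool a for GAPDH, while under the other scalings it was pool c for EEF1A1 and pool b for GAPDH. ACTB was lowest in pool b under each of the 4.

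Genes of similar read count were the 100 genes nearest in mean reads, leaving out the 3 themselves. Because all 3 are among the most read genes, the nearest 100 were the same 100 genes for each. They had 130590.0 to 1162553 reads on average, all fewer than EEF1A1 with a mean of 1427869. Apart from ACTB, only 3 genes lay within 2-fold of the mean reads of EEF1A1. Of these 100 genes, 75 had a larger CV than EEF1A1, 74 a larger CV than ACTB and 73 a larger CV than GAPDH. Their median CV was 3.77%, with quartiles of 1.98% and 6.03% and a range from 0.493 to 15.9%. EEF1A1 thus lay just below the lower quartile of this group, and ACTB and GAPDH just above it, and 25 of the 100 genes were steadier than all of them. On total reads 94 of the 100 genes varied more than EEF1A1, 65 more than ACTB and 61 more than GAPDH. Without pool a, 46 of the 100 nearest genes varied more than ACTB. The group holds 11 genes of the run of identifiers named above. With the run left out, and the next nearest genes in its place, 72 of 100 genes varied more than EEF1A1, 71 more than ACTB and 70.0 more than GAPDH.

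**Figure D3:**
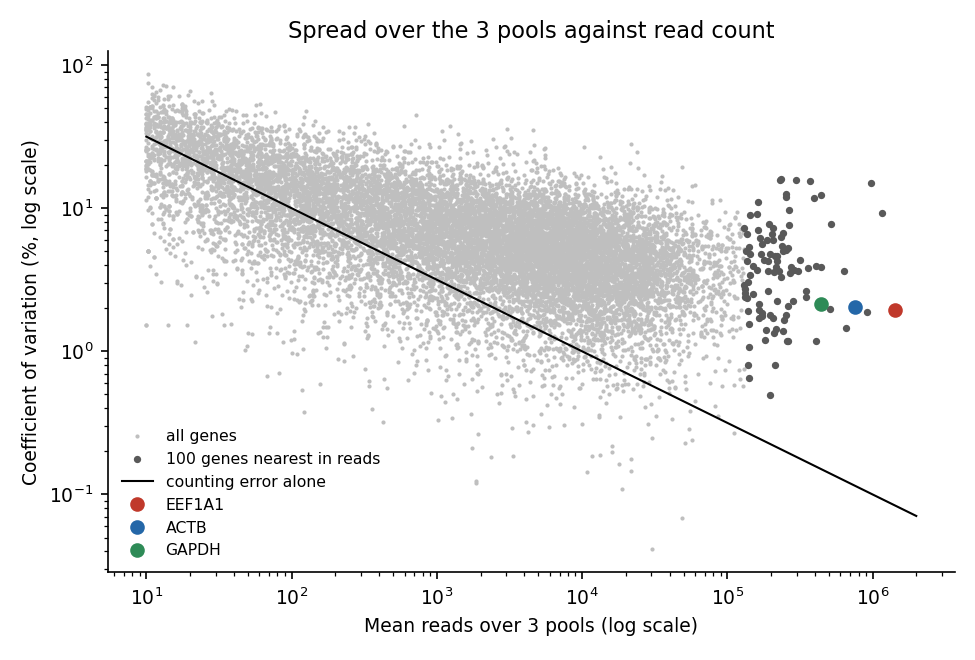
Coefficient of variation over 3 pools of TMM-scaled reads (percent, log axis) against mean reads (log axis) for genes with a mean of 10 reads or more, with the 100 genes nearest in reads in dark grey and the CV of counting error alone as a line. EEF1A1, ACTB and GAPDH lie at 1.94%, 2.04% and 2.14%, above the line and in the lower part of the dark grey points.

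EEF1A1 was highest in pool a, while ACTB and GAPDH were both highest in pool c and lowest in pool b. As log2 deviation from the gene's own mean over pools, EEF1A1 had 0.032 for pool a, -0.016 for pool b and -0.016 for pool c. The 100 similar genes had medians of 0.026, -0.023 and -0.012 in pools a, b and c, so EEF1A1 moved as the typical gene of this group did. In each pool between 45 and 57 of the 100 lay below EEF1A1. ACTB had deviations of 0.0016, -0.030 and 0.029 in pools a, b and c, with 21, 41 and 83 of the 100 genes below it. GAPDH had -0.015, -0.020 and 0.035, with 13, 52 and 89 of the 100 below it. ACTB and GAPDH were thus low in pool a and high in pool c relative to genes of similar read count, and EEF1A1 was in the middle in every pool.

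**Figure D4:**
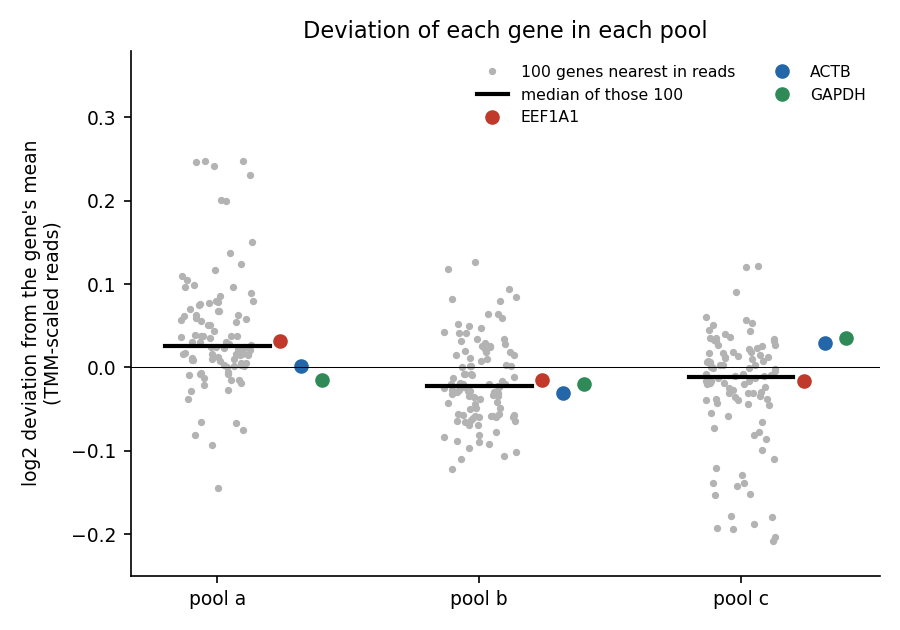
Log2 deviation of TMM-scaled reads from each gene's mean over pools, for the 100 genes nearest in reads (grey, spread sideways for visibility, median as a bar) and for EEF1A1, ACTB and GAPDH in each pool. EEF1A1 lies close to the median bar in every pool, while ACTB and GAPDH lie below it in pool a and above it in pool c.

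Ratios between genes of the same pool need no scaling of libraries. The EEF1A1/ACTB ratio of cRPKM was 1.79 for pool a (95% interval for counting error 1.79 to 1.80), 1.77 for pool b (1.77 to 1.78) and 1.70 for pool c (1.70 to 1.71). The EEF1A1/GAPDH ratio was 2.36 for pool a (2.36 to 2.37), 2.295 for pool b (2.29 to 2.303) and 2.21 for pool c (2.1999 to 2.21). The ACTB/GAPDH ratio was 1.32 for pool a (1.31 to 1.32), 1.29 for pool b (1.29 to 1.299) and 1.297 for pool c (1.29 to 1.30). Both ratios with EEF1A1 on top were highest in pool a and lowest in pool c, by more than counting error. The ACTB/GAPDH ratio was higher in pool a than in the other pools by more than counting error, and pools b and c overlapped.

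Over all 3 pools the ACTB and GAPDH pair kept the steadiest ratio. The SD over pools of the log2 ratio was 0.014 for ACTB/GAPDH around a mean of 0.38. It was 0.040 for EEF1A1/ACTB around 0.81 and 0.0497 for EEF1A1/GAPDH around 1.19 (n = 3 pools each). Counting error alone gives SDs of 0.0027, 0.0020 and 0.0025 for these 3 pairs. From the highest to the lowest pool the ratio differed by 1.019 times for ACTB/GAPDH, 1.054 times for EEF1A1/ACTB and 1.071 times for EEF1A1/GAPDH. Among all 14028 pairs of the 168 genes with a mean of 100000 reads or more, the median SD was 0.075, with quartiles of 0.045 and 0.119. Of these pairs, 96.5% varied more than ACTB/GAPDH, 79.1% more than EEF1A1/ACTB and 70.6% more than EEF1A1/GAPDH. The pairs share genes and libraries and are no independent points. The order of the 3 pairs changed with the pools. With pool c left out the SD was 0.019 for ACTB/GAPDH, 0.011 for EEF1A1/ACTB and 0.030 for EEF1A1/GAPDH, so that EEF1A1/ACTB was the steadiest. With pool a left out it was 0.0024 for ACTB/GAPDH, 0.042 for EEF1A1/ACTB and 0.0398 for EEF1A1/GAPDH, so that ACTB/GAPDH was still the steadiest and the other two changed places. That ACTB/GAPDH value was no larger than the 0.0027 that counting error alone gives. A steady ratio says only that both genes moved alike over these pools: ACTB and GAPDH both were highest in pool c.

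Against a wide panel of genes EEF1A1 was the steadiest of the 3 over all pools. The measure M, in use for choosing reference genes, is the mean over all other genes of a panel of the SD of the log2 read ratio, and a lower M means a steadier gene. In the panel of 3215 genes with a mean of 10000 reads or more, M was 0.066 for EEF1A1, 0.073 for ACTB and 0.074 for GAPDH. The panel had a median of 0.079, with quartiles of 0.069 and 0.098 and a minimum of 0.062. EEF1A1 ranked 501 of 3215 from the lowest M, ACTB 1154 and GAPDH 1221. Among the 168 genes with a mean of 100000 reads or more the ranks were 10, 55 and 76. Within the 3 genes alone the order turned: M was 0.027 for ACTB, 0.032 for GAPDH and 0.045 for EEF1A1. By construction these values average the SDs of the pairs given above, so this order restates them. The ranking by M therefore depended on the genes that each was set against. It also depended on pool c: with that pool left out, M in the panel of 3215 was 0.056 for EEF1A1, 0.051 for ACTB and 0.046 for GAPDH, so that EEF1A1 was the least steady of them.

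If a gene served as the only yardstick, it would set the scaling of each library. Scaled by EEF1A1, the size of pool a differed from its TMM size by 2.26%, that of pool b by -1.08% and that of pool c by -1.14%. ACTB gave 0.111%, -2.08% and 2.01% for pools a, b and c, and GAPDH gave -1.04%, -1.395% and 2.48%. The largest gap between any 2 pools, relative to TMM, was 3.43% for EEF1A1, 4.17% for ACTB and 3.93% for GAPDH. By construction these restate the ratios of highest to lowest pool given above for TMM-scaled reads. For total reads the gap was 1.82% and for DESeq2 size factors 0.277%. With all 3 pools in, the geometric mean of EEF1A1 and GAPDH lowered the gap to 1.92%. That of EEF1A1 and ACTB lowered it to 2.81% and that of all 3 genes to 2.66%. ACTB with GAPDH, whose ratio was the steadiest, gave 4.05%, between the gaps of the single genes. Each gap is set by its highest and lowest pool, so leaving out 1 of these can lower it for any gene. Some gaps hardly moved: without pool a they were 4.18% for ACTB, 3.93% for GAPDH and 2.67% for all 3 genes. Others changed more. Without pool a the gap of EEF1A1 alone was 0.044%, without pool b that of EEF1A1 with GAPDH was 0.062%, that of EEF1A1 with ACTB 0.746% and that of all 3 genes 0.671%. The gap of ACTB was 1.90% without pool b and 2.71% without pool c. Without pool c the gap was 0.833% for GAPDH and 1.77% for ACTB with GAPDH. Other gaps rose without pool c, to 3.86% for EEF1A1, 3.29% for EEF1A1 with ACTB and 2.34% for EEF1A1 with GAPDH. Without pool a, EEF1A1 with GAPDH gave 1.92%, more than EEF1A1 alone. A combination was thus not always closer to TMM than its best single gene. Combinations were set against TMM only. On total reads the ratio of highest to lowest pool was 1.025 for EEF1A1, 1.052 for ACTB and 1.054 for GAPDH. Whether a combination lowers it on that scale was not tested. Under the scaling by all 3 genes, the median log2 deviation of the 10459 detected genes was -0.0048 for pool a, 0.027 for pool b and -0.018 for pool c. Under TMM these medians were 0.0015, 0.0053 and -0.0023. Both TMM and DESeq2 factors are set so that most genes differ little between libraries. Small medians under TMM and a small gap for DESeq2 therefore follow largely from how these factors are made.

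**Figure D5:**
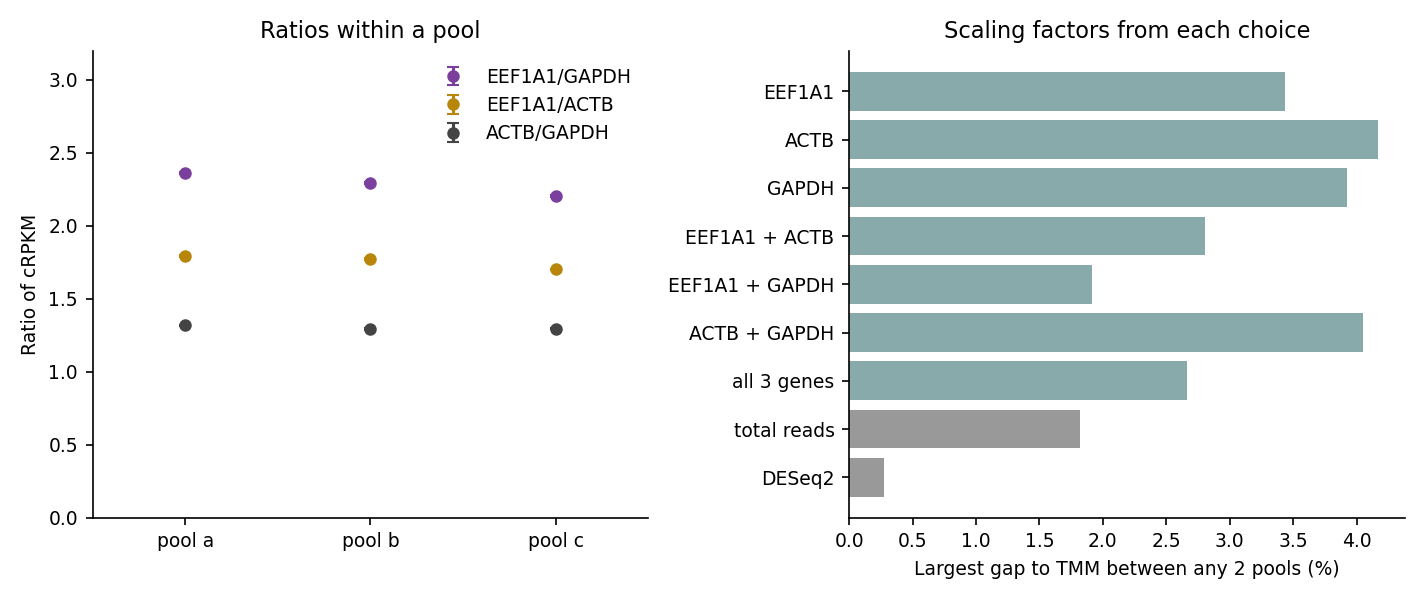
Left, ratio of cRPKM between the genes in each pool (linear axis from 0), with 95% intervals for counting error that are smaller than the symbols. Right, the largest gap between any 2 pools, in percent relative to TMM, when libraries are scaled by 1 gene, by the geometric mean of several, by total reads or by DESeq2 size factors: single genes give 3.43 to 4.17% and EEF1A1 with GAPDH 1.92%.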

How the data were processed

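The authors deposited 1 table per library, 3 in all, with identifier, cRPKM and reads as columns and no header. Counts were deposited raw, as whole numbers. The cRPKM deposited beside them is an RPKM that the authors corrected and rounded to 2 decimals, a unit known from the names of the files. An RNeasy kit gave the RNA and a TruSeq RNA kit the libraries, per the labels' protocols. Bowtie is named per the submitters' processing notes. Not given in the sources used here are its settings, the genome build, the annotation, and whether counting used strand. Of 16958 listed genes, 300 were NA in at least 1 library and were left out. The RefSeq genes of assembly GRCg7b at hand carried 0 Ensembl identifiers, so no match was possible. Lists of other actins, elongation factors, glycolytic enzymes and reference genes could therefore not be looked up, and no sequence is shown.

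TMM factors (edgeR 4.0.16, R 4.3.3, genes with a mean of 10 reads or more) were 0.991, 0.999 and 1.009 for pools a, b and c, and DESeq2 1.42.0 size factors were an alternative. No test was made, the quasi-likelihood test of edgeR included, since 1 group gives no contrast. Positions were worked out as reads over the product of cRPKM and total reads. Counting CVs are 1 over the square root of the mean reads, and intervals of shares and ratios are exact binomial at 95%. Reads carry no molecular identifiers and need not be independent molecules. A value of 0.5 was added to reads for the median deviation of all detected genes. CV and M were checked on simulated counts with counting error only, and with changes in pool a larger than the gaps seen here. That check did not cover TMM or a spread as far above counting error as in these pools. The rest ran in Python 3.11.15 with scipy 1.17.1, pandas 2.3.3 and numpy 2.4.6. The 3 genes, the lists and the measures were chosen with earlier results of these data known. The rule for named genes asked for the 3 genes, the gene next above and below in level, and the nearest in level, by identifier where no symbol is known.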

Additional observations from a re-analysis of the deposited data

How the results depend on the processing

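With 3 pools, every spread rests on few values. With 1 pool left out, the CV ran from 0.031 to 2.68% for EEF1A1, 1.33 to 2.89% for ACTB and 0.587 to 2.73% for GAPDH. The share of genes of similar read count that varied more ran from 56 to 100% for EEF1A1, 46 to 72% for ACTB and 51 to 96% for GAPDH. M ran from 0.056 to 0.063, 0.051 to 0.077 and 0.046 to 0.077 for EEF1A1, ACTB and GAPDH, and the GAPDH rank from 9 to 14; EEF1A1 stayed at rank 1 and ACTB at rank 5. The log2 ratio ran from 0.80 to 0.83 for EEF1A1/ACTB, 1.17 to 1.22 for EEF1A1/GAPDH and 0.37 to 0.39 for ACTB/GAPDH. On reads not scaled to positions these ratios were 0.91, 1.69 and 0.79, larger because the genes differ in positions. The M of EEF1A1 was 0.083 in a panel from 1000 reads and 0.060 in a panel from 100000 reads. Set against the 100 genes nearest in cRPKM, a choice made after seeing the data like the one without the run, 90.0% varied more than EEF1A1, 89% more than ACTB and 88% more than GAPDH. Windows of 50 and 200 genes, and genes within 2-fold of the mean reads, gave shares between 66.7 and 80.0%. Within 2-fold lay 3, 12 and 41 genes for EEF1A1, ACTB and GAPDH, leaving out the 3 themselves. No paired analysis was possible because the labels give 1 group.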

Other observations

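A minority of genes of high read count were steadier over these pools than EEF1A1, ACTB and GAPDH. Of the 3215 genes with a mean of 10000 reads or more, 585 had a lower CV on TMM-scaled reads than all 3. By M, 500 were lower than all 3. The median CV of these 3215 genes was 3.75%. With 3 pools, the CV of a single gene is known only roughly. Whether the same genes would be steadier in further pools was not tested.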
